A study of Mus musculus with 30 samples.

Results

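The Schlafen family was followed through 2 mouse tumour cell lines treated with interferons or a STING agonist. Its members were the 7 genes Slfn1, Slfn2, Slfn3, Slfn4, Slfn5, Slfn8 and Slfn9, taken by symbol from 49315 counted genes, 11 of which had a symbol starting with Slfn. B16F10 is a melanoma line, and 6694c2 is a pancreatic ductal adenocarcinoma line from engineered mice that carried, among other alleles, a floxed p53 allele, Pdx-cre and a floxed YFP reporter. The labels give C57BL/6 as the genotype of both. Cells of each line were kept in culture for 24 h with vehicle, with IFNγ (100 ng/mL), with IFNβ (1000 U/mL) or with STING agonist (225 μg/mL), and polyA RNA was sequenced from 3 libraries of each of the 8 groups, 24 in all. Each line stands for its tumour type alone, and no label says that the 3 libraries of a group came from separate cultures, so that p-values measure the spread between these samples, which may be technical.

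Schlafen genes, named for the German word for sleep after effects on lymphocyte growth, are a family of vertebrate proteins that bind or cut RNA, and several are classical interferon-stimulated genes. In the mouse they fall into short members (Slfn1 and Slfn2), intermediate members (Slfn3 and Slfn4) and long members that carry a helicase-like domain (Slfn5, Slfn8 and Slfn9). Type I interferons such as IFNβ signal through IFNAR and a complex with STAT2 and IRF9, which binds interferon-stimulated response elements (ISREs), whereas IFNγ acts mainly through gamma-activated sequences (GAS). STING is an adaptor protein of the endoplasmic reticulum whose activation can lead to type I interferon production.

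The members lie side by side on chromosome 11 (GRCm38). In order along the chromosome they are Slfn5 (ENSMUSG00000054404, chr11:82951349-82964840, plus strand), Slfn9 (ENSMUSG00000069793, chr11:82978390-82991830, minus strand), Slfn8 (ENSMUSG00000035208, chr11:83002158-83020810, minus strand), Slfn2 (ENSMUSG00000072620, chr11:83065112-83070678, plus strand), Slfn1 (ENSMUSG00000078763, chr11:83116849-83122670, plus strand), Slfn4 (ENSMUSG00000000204, chr11:83175186-83190216, plus strand) and Slfn3 (ENSMUSG00000018986, chr11:83191330-83215154, plus strand). The pseudogene Slfn10-ps sits between Slfn8 and Slfn2, and Slfn14 lies beyond Slfn3. The long members Slfn9 and Slfn8 are neighbours on the minus strand and the short and intermediate members all lie on the plus strand.

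RefSeq promoter windows of 300 bases (250 before and 50 after each start, GRCm38.p6) were found for all 7 members. The upstream parts for Slfn8 and Slfn9 are shown because their transcripts responded to both interferons in both lines, and their capitals mark the match to the ISRE letters, which are TTTC, any 2 bases and TTTC again, searched on both strands.
Slfn8 (chr11:83020811-83021060, minus strand): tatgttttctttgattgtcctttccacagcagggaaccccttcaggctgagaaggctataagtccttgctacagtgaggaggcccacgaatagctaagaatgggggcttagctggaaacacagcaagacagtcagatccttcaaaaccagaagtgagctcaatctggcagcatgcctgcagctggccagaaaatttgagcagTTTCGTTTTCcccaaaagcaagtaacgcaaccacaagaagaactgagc
Slfn9 (chr11:82991831-82992080, minus strand): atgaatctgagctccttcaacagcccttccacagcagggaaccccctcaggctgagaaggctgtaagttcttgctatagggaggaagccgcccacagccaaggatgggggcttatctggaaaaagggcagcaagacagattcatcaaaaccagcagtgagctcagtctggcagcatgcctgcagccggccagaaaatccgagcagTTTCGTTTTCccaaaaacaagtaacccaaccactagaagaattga
These 2 windows were 80.7% identical over their aligned bases, whereas the other 20 pairs of members were 43.7% to 50.6% identical. The ISRE match began 48 bases before the upstream start of Slfn8 and 45 bases before that of Slfn9, with the same letters TTTCGTTTTC. Slfn5 held a match on the opposite strand, 155 to 146 bases before its RefSeq start. That start (chr11:82952102) lies inside the counted gene, which begins at chr11:82951349. Of the 250 upstream bases, 117 overlap an exon of the transcript Slfn5-204. The match is shown in its surroundings, in capitals.
Slfn5 (chr11:82951937-82951966, plus strand): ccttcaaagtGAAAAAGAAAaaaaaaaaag
ISRE letters were thus present in 3 of 7 members, against 3.99% of 27025 genes with a window (3.44% of their 32851 windows). The GAS letters TTCNNNGAA, searched on both strands, were in no member's window, against 9.55% of all genes. The windows of Slfn1, Slfn2, Slfn3 and Slfn4 held no ISRE match. The longest run common to them was 9 bases, in capitals here, searched for after the windows were read. It was picked because these windows share it, so that sharing is not a test. It is in 0.843% of all windows.
Slfn2 (chr11:83065047-83065076, plus strand): cagggctttcACTTCCTGGagggtgacagt
Slfn1 (chr11:83116736-83116765, plus strand): gatgtctcacACTTCCTGGagtgacatcaa
Slfn4 (chr11:83175103-83175132, plus strand): ttccggttatACTTCCTGGagtgacgaaat
Slfn3 (chr11:83191278-83191307, plus strand): ggatgacagaACTTCCTGGgggagggactc
A match describes letters in these windows and does not show binding.

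**Figure D1:**
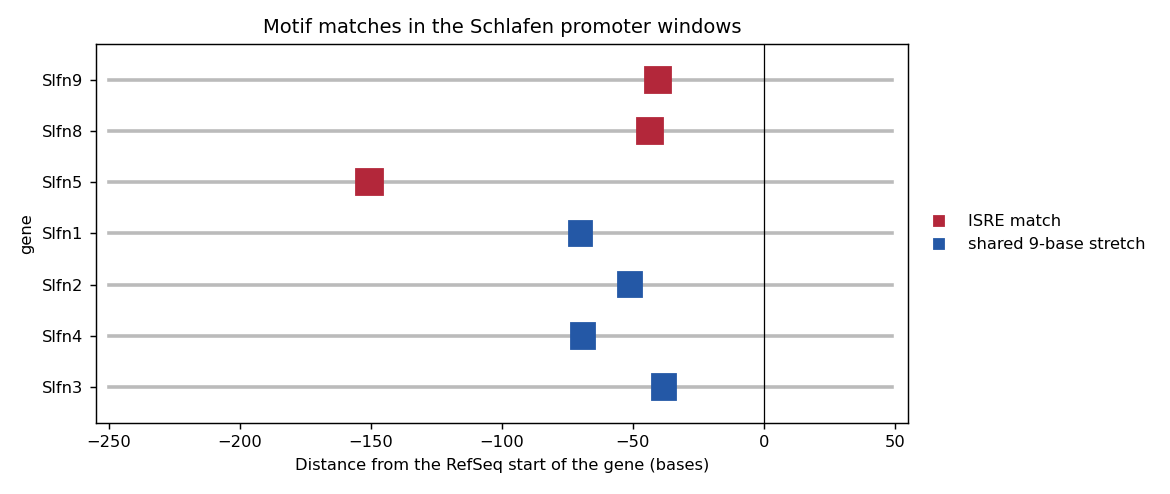
Motif matches in the promoter windows of the 7 members, drawn against distance from the RefSeq start (bases, x axis), with 1 line per gene. Red boxes mark ISRE matches (Slfn9, Slfn8 from its upstream start, and Slfn5) and blue boxes the 9-base stretch shared by Slfn1, Slfn2, Slfn3 and Slfn4, all of which lie before the start.

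Levels are given in CPM, counts scaled to a common library size after TMM normalization over the 24 libraries. Differences are log2 fold changes tested by quasi-likelihood in edgeR, and a gene was called when its p, adjusted over all 21138 genes tested, was under 0.05. All 7 members passed the filter of 10 reads over the 24 libraries, which held 15543131 to 32266795 reads on genes. IFNβ changed all 7 members in 6694c2 cells, each of them higher, in a comparison in which 18.2% of genes were called in either direction. In B16F10 cells it changed 3 of 7, each higher, against 24.0% of all genes. IFNγ raised 4 of 7 members in 6694c2 cells and none fell, against 13.5% of all genes called, and it raised 2 of 7 in B16F10 cells, again with none lower, against 22.8%. The STING agonist changed 0 members by the same edgeR test in either line, where 3.46% of all genes in B16F10 and 0.360% in 6694c2 were called.

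The median log2 fold change of the 7 members with IFNβ was 5.82 in 6694c2 and 0.52 in B16F10, beside medians over all genes of 0 and 0.02. Slfn1 and Slfn4 had no read in the 6694c2 vehicle libraries, so their fitted changes rest on a prior count, and they are given as bounds below.

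**Figure D2:**
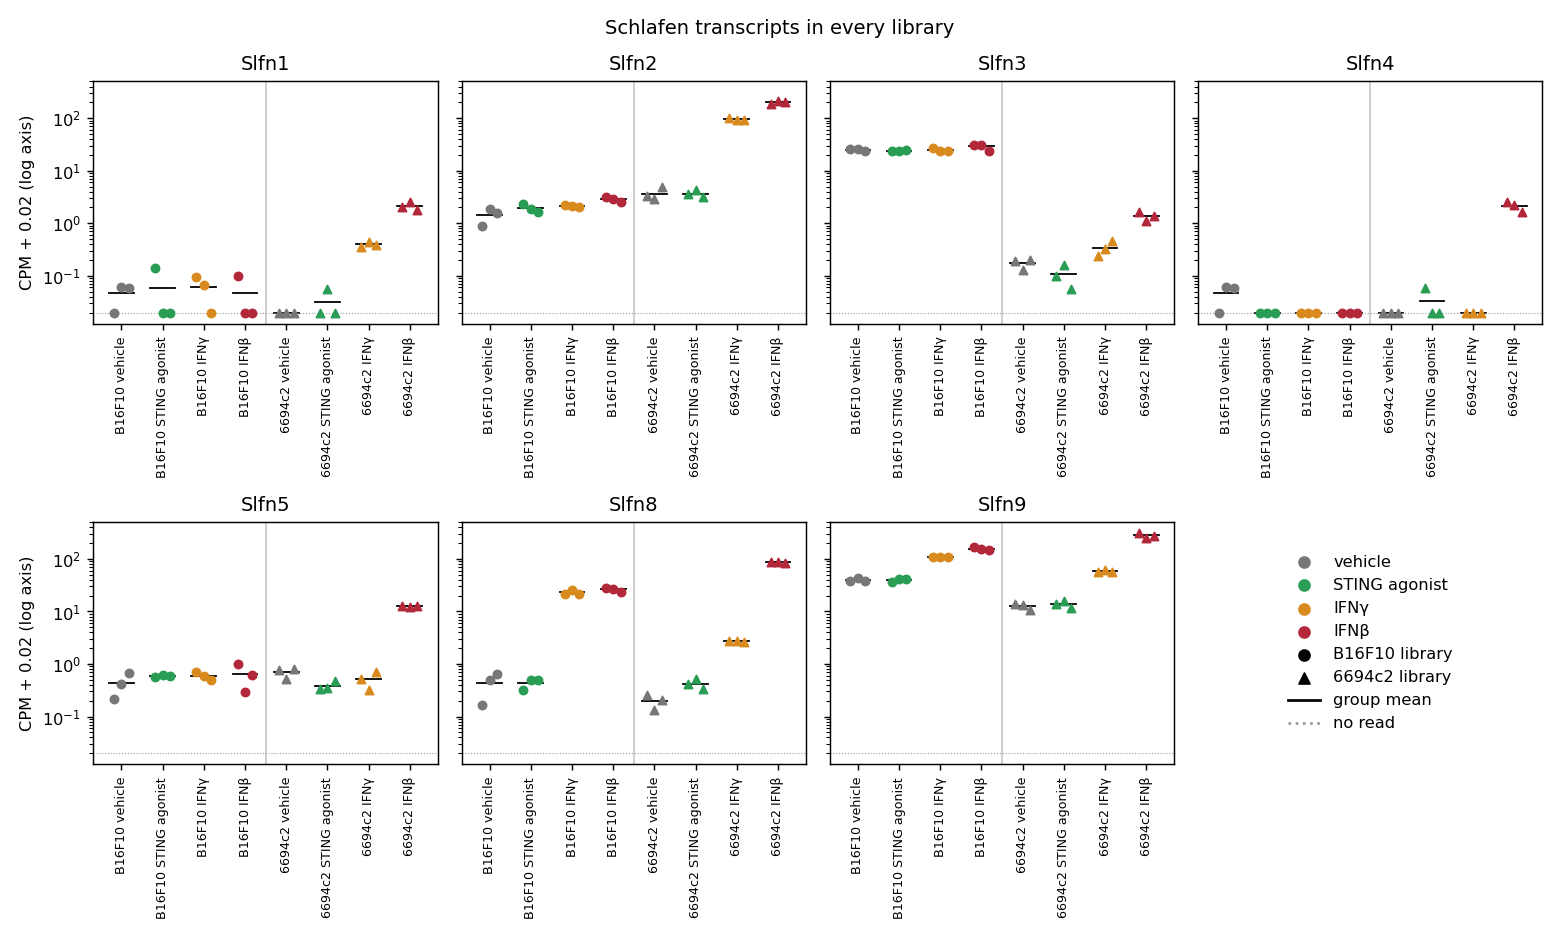
Level of each member in all 24 libraries, as CPM plus 0.02 on a log axis, by line and treatment (circles, B16F10; triangles, 6694c2; black bars, group means of 3 libraries; dotted line, no read). Slfn3 sat near 25 CPM in every B16F10 group and below 2 CPM in 6694c2, while the other members were highest with IFNβ in 6694c2.

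**Figure D3:**
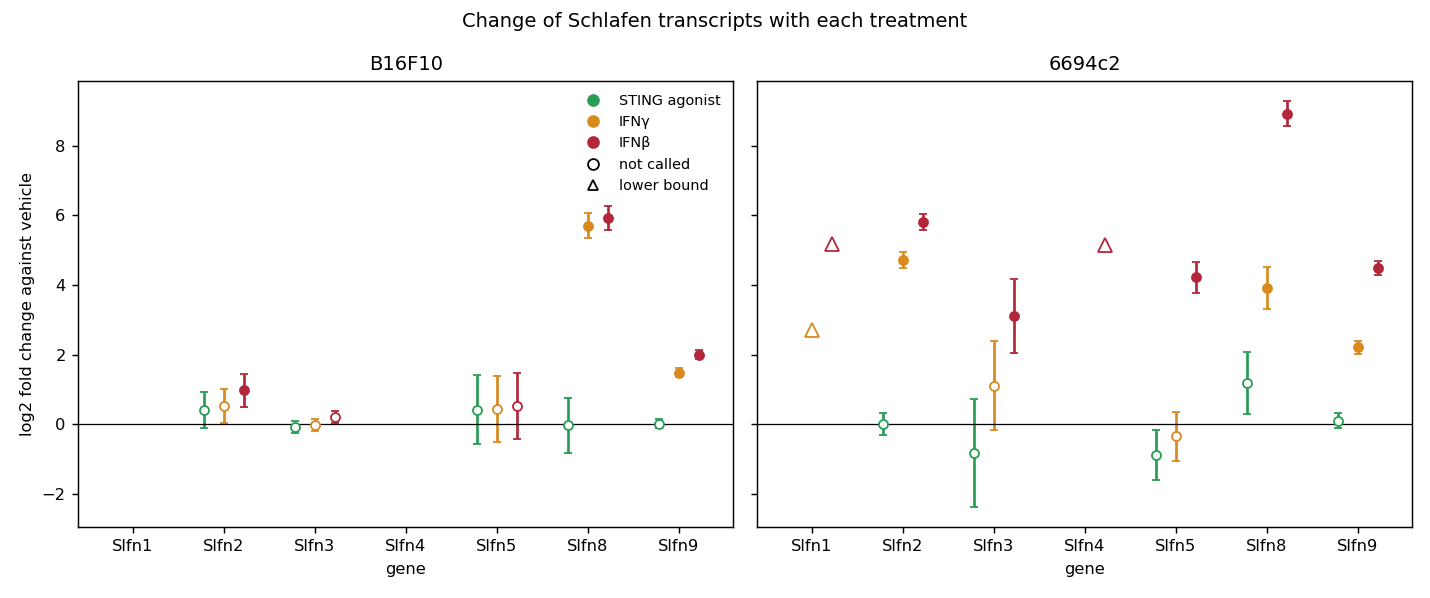
Log2 fold change of each member against vehicle with its 95% interval, for B16F10 (left) and 6694c2 (right), coloured by treatment. Filled points were called, open points were not, and open triangles are lower bounds for Slfn1 and Slfn4, which had no read with vehicle. Pairs of groups with 3 reads or fewer in either group are otherwise left out, so Slfn1 and Slfn4 have no point in B16F10.

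Slfn8, a long member, had the largest fold change of the family with IFNβ among members with reads in the vehicle group. In 6694c2 cells its level was 0.233, 0.112 and 0.183 CPM with vehicle, 2.72, 2.76 and 2.58 CPM with IFNγ and 88.7, 86.9 and 82.1 CPM with IFNβ. The 3 groups did not overlap, and only 9 reads in all stood behind the vehicle mean. Its log2 fold change was 3.91 ± 0.30 (SE, n = 3 per group) with IFNγ (edgeR adjusted p = 3.99e-14) and 8.93 ± 0.17 with IFNβ (edgeR adjusted p = 9.79e-36). In B16F10 cells it rose from 0.143, 0.481 and 0.626 CPM with vehicle to 21.6, 25.7 and 21.7 CPM with IFNγ and 28.2, 27.1 and 23.8 CPM with IFNβ. Here both interferons gave nearly the same level, with log2 fold changes of 5.71 ± 0.18 (edgeR adjusted p = 1.03e-110) and 5.92 ± 0.18 (edgeR adjusted p = 1.96e-117). The difference of IFNβ from IFNγ was 0.21 in B16F10 (95% interval 0.02 to 0.40, edgeR adjusted p = 0.153, and 0.0489 without IFNβ replicate 3) and 5.02 in 6694c2 (95% interval 4.80 to 5.25, edgeR adjusted p = 6.55e-33). Only the latter was called.

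Slfn9, the long member beside it, rose with each interferon in each line. In B16F10 cells its level was 37.2, 42.8 and 37.5 CPM with vehicle, 110.3, 111.1 and 107.5 CPM with IFNγ and 168.2, 155.8 and 145.0 CPM with IFNβ. In 6694c2 cells it was 14.0, 13.4 and 10.8 CPM with vehicle, 57.6, 60.5 and 57.2 CPM with IFNγ and 314.7, 247.2 and 276.4 CPM with IFNβ. In both lines the groups were ordered vehicle, IFNγ, IFNβ with no overlap. The log2 fold changes with IFNγ and IFNβ were 1.48 ± 0.06 and 2.00 ± 0.06 in B16F10 and 2.21 ± 0.10 and 4.49 ± 0.10 in 6694c2, all called. IFNβ exceeded IFNγ by 0.52 ± 0.06 in B16F10 (edgeR adjusted p = 7.01e-15), where 14.5% of all genes were called, and by 2.28 ± 0.09 in 6694c2 (edgeR adjusted p = 8.53e-25), where 13.9% were. Of the 7 members, 2 were called in this comparison in B16F10 and 7 in 6694c2, each higher with IFNβ.

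Slfn5, the long member on the other side of Slfn9, responded to IFNβ in 6694c2 cells. Its 6694c2 levels were 0.759, 0.502 and 0.792 CPM with vehicle, 0.5001, 0.307 and 0.680 CPM with IFNγ and 12.9, 12.03 and 12.5 CPM with IFNβ. The vehicle and IFNγ libraries overlapped, and the IFNβ libraries lay apart from both. The change with IFNβ was 4.22 ± 0.22 (edgeR adjusted p = 4.85e-20) and that with IFNγ was -0.35 (95% interval -1.06 to 0.36, edgeR adjusted p = 0.645). In B16F10 cells all 12 libraries lay between 0.191 and 0.969 CPM, and the log2 fold change with IFNβ was 0.52 (95% interval -0.43 to 1.46, edgeR adjusted p = 0.529).

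Slfn2, a short member known for keeping T cells and other leukocytes quiescent and for protecting tRNA from cleavage, rose strongly in 6694c2 cells with either interferon, to 56.9 CPM per kb of exon with IFNγ and 120.9 CPM per kb with IFNβ, the highest of the family. Its level there was 3.33, 2.85 and 4.82 CPM with vehicle, 99.7, 92.4 and 92.1 CPM with IFNγ and 184.1, 215.8 and 203.6 CPM with IFNβ. The log2 fold change was 4.71 ± 0.12 with IFNγ (edgeR adjusted p = 1.18e-31) and 5.82 ± 0.12 with IFNβ (edgeR adjusted p = 3.04e-35). In B16F10 cells it stayed low, at 0.861, 1.89 and 1.53 CPM with vehicle, 2.16, 2.11 and 1.98 CPM with IFNγ and 3.11, 2.84 and 2.55 CPM with IFNβ. Of these, the IFNβ change of 0.98 ± 0.24 was called (edgeR adjusted p = 0.000616) and the IFNγ change of 0.53 ± 0.25 was not (edgeR adjusted p = 0.135, and 0.0443 without vehicle replicate 2). The B16F10 IFNβ level was 1.41% of that in 6694c2 with IFNβ, and the summed level of 7 ductal epithelial markers in the same B16F10 libraries was 0.266% of that in 6694c2 with vehicle. The part of RNA from the other line in the result was not tested.

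Slfn1, the other short member and the founding member for growth arrest of T cells, was close to absent outside interferon-treated 6694c2 cells. It had 0 reads in all 3 vehicle libraries of that line, then 0.333, 0.429 and 0.374 CPM with IFNγ and 2.00, 2.53 and 1.81 CPM with IFNβ. Against a floor of 3 reads over the vehicle group, it was at least 6.50-fold higher with IFNγ (24 reads, edgeR adjusted p = 0.000246) and at least 36.2-fold higher with IFNβ (165 reads, edgeR adjusted p = 2.63e-10). IFNβ exceeded IFNγ by 2.48 ± 0.40 on the log2 scale (edgeR adjusted p = 1e-05). In B16F10 no group held more than 3 reads in all.

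Slfn4, an intermediate member known from myeloid cells, was detected in 6694c2 cells with IFNβ and hardly elsewhere. The IFNβ libraries gave 2.50, 2.17 and 1.58 CPM, from 75, 48 and 43 reads. The vehicle and IFNγ libraries of the line had no read, and the STING agonist libraries had 1. IFNβ was at least 35.7-fold higher than vehicle (edgeR adjusted p = 1.85e-09) and at least 44.3-fold higher than IFNγ (edgeR adjusted p = 5.78e-10). In B16F10 cells 2 reads were counted with vehicle and 0 with each treatment.

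Slfn3, the intermediate member next to Slfn4, had the reverse distribution between the lines. In B16F10 cells it stood at 26.2, 25.99 and 23.3 CPM with vehicle, 27.4, 23.3 and 23.6 CPM with IFNγ, 31.4, 31.4 and 24.2 CPM with IFNβ and 23.4, 23.7 and 25.1 CPM with the STING agonist. These 4 groups overlapped. The log2 fold change against vehicle was -0.02 with IFNγ (95% interval -0.19 to 0.15) and 0.21 with IFNβ (95% interval 0.05 to 0.38, edgeR adjusted p = 0.0501, and 0.00112 without IFNβ replicate 3), neither of them called. IFNβ exceeded IFNγ by 0.23 ± 0.08 (edgeR adjusted p = 0.041), a call lost with either of IFNβ replicates 1 and 2 left out (edgeR adjusted p = 0.272 and 0.328) and with either of IFNγ replicates 2 and 3 left out (0.183 in both). In 6694c2 cells the level was 0.175, 0.112 and 0.183 CPM with vehicle and 1.60, 1.09 and 1.36 CPM with IFNβ, a log2 fold change of 3.11 ± 0.52 (edgeR adjusted p = 1.2e-05). With IFNγ it was 0.222, 0.307 and 0.442 CPM, a log2 fold change of 1.10 (95% interval -0.17 to 2.38, edgeR adjusted p = 0.316).

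The Slfn3 level in 6694c2 was 0.622% of that in B16F10 with vehicle and 4.66% with IFNβ, each against B16F10 with the same treatment. Over the same 6694c2 libraries, the summed level of 7 melanocyte markers was 0.465% with vehicle and 0.190% with IFNβ. The marker values are always against B16F10 with vehicle, so the paired percentages have different bases. With IFNγ the 2 values were 1.31% for Slfn3 and 0.451% for the markers, and with the STING agonist 0.358% and 0.112%. The part of RNA from the other line in these Slfn3 levels was not tested. Of the exonic 50-base stretches of Slfn3, 7.39% also occur in Slfn4, so reads of these genes can be hard to tell apart. In such bulk samples, fewer cells of a type and less RNA per cell cannot be told apart.

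With the STING agonist the members were close to their vehicle levels or too low to resolve a difference. In B16F10 cells Slfn9 was 36.9, 40.7 and 41.8 CPM, within 1 SD of the vehicle mean, with a log2 fold change of 0.02 (95% interval -0.12 to 0.15). For Slfn8 the change was -0.03 (95% interval -0.81 to 0.75), for Slfn3 -0.07 (95% interval -0.24 to 0.10), for Slfn2 0.41 (95% interval -0.11 to 0.93) and for Slfn5 0.42 (95% interval -0.56 to 1.41). In 6694c2 cells the log2 fold change was 0.10 for Slfn9 (95% interval -0.11 to 0.32) and 0.01 for Slfn2 (95% interval -0.31 to 0.33). Slfn8 was 0.394, 0.505 and 0.317 CPM in these libraries, all above the 3 vehicle libraries, with a log2 fold change of 1.19 (95% interval 0.30 to 2.08, edgeR adjusted p = 0.475). In all 3 libraries Slfn5 lay below the lowest vehicle library, with a log2 fold change of -0.88 (95% interval -1.601 to -0.15, edgeR adjusted p = 0.496). At an unadjusted p under 0.05 these 2 members differed in 6694c2 and 0 in B16F10, and DESeq2 also called 0 in each line.

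Set against IFNβ, the STING agonist gave lower levels of Slfn9, Slfn8 and Slfn3 in B16F10, by -1.99 ± 0.07, -5.95 ± 0.19 and -0.28 ± 0.09 on the log2 scale, where 19.8% of all genes were called. The Slfn3 call was lost with IFNβ replicate 1 or 2 left out (edgeR adjusted p = 0.0835 and 0.126) and with all 24 libraries in 1 fit (edgeR adjusted p = 0.0644). In 6694c2 all 7 members were lower, where 17.5% of all genes were called. The largest of these differences among members with over 3 reads in both groups was that of Slfn8, -7.74 ± 0.14. These comparisons use the same IFNβ libraries as those against vehicle.

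Under vehicle, 4 of 7 members differed between the lines, in a comparison in which 58.0% of all genes did. Slfn2 was higher in 6694c2, by 1.32 ± 0.21 (edgeR adjusted p = 4.64e-07). Slfn3 was lower there by -7.29 ± 0.23 (edgeR adjusted p = 8.05e-28), Slfn9 by -1.62 ± 0.10 (edgeR adjusted p = 7.88e-18) and Slfn8 by -1.28 ± 0.50 (edgeR adjusted p = 0.0271). The Slfn8 call, from 9 and 31 reads, was lost with B16F10 vehicle replicate 2 or 3 or 6694c2 vehicle replicate 2 or 3 left out (edgeR adjusted p 0.0608, 0.174, 0.119 and 0.0554). It was also lost with the compared groups alone in the fit (edgeR adjusted p = 0.129).

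The response to IFNβ was larger in 6694c2 than in B16F10 for all 7 members by the interaction test, in which 12.1% of all genes were called. The difference of log2 fold changes was 4.83 ± 0.28 for Slfn2 (edgeR adjusted p = 7.23e-17), 3.69 ± 0.52 for Slfn5 (edgeR adjusted p = 1.56e-06), 2.99 ± 0.49 for Slfn8 (edgeR adjusted p = 2.61e-05), 2.89 ± 0.42 for Slfn3 (edgeR adjusted p = 3.22e-06) and 2.46 ± 0.13 for Slfn9 (edgeR adjusted p = 2.19e-18). Slfn1 and Slfn4 were called too, from groups with no or few reads, and the Slfn1 call was lost with B16F10 vehicle replicate 2 or 3 left out (edgeR adjusted p = 0.0818 and 0.0823).

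For IFNγ the lines differed in 2 members, in a test that called 9.47% of all genes. Slfn2 responded more in 6694c2 by 4.18 ± 0.28 (edgeR adjusted p = 9.83e-15) and Slfn9 by 0.71 ± 0.13 (edgeR adjusted p = 0.000149). Slfn8 had the opposite sign, -1.82 (95% interval -3.11 to -0.52, edgeR adjusted p = 0.0679), and was not called, although it was by DESeq2 (adjusted p = 0.0158) and without B16F10 vehicle replicate 3 (edgeR adjusted p = 0.0339). When the reads of Slfn8, Slfn9 and Slfn10-ps were summed, which share part of their sequence, the sum differed by 0.54 in favour of 6694c2 (edgeR adjusted p = 0.00263). Slfn9 held most of these reads with IFNγ (7821 against 1630 of Slfn8 in B16F10, and 3704 against 170 in 6694c2). The sum thus follows Slfn9 and does not check the Slfn8 difference. For the STING agonist 0 members differed between the lines by this edgeR test, which called 2.12% of all genes, 1 did at an unadjusted p under 0.05, and DESeq2 called 0.

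Per kilobase of exon, which allows genes to be compared, the make-up of the family differed between the lines and with treatment. The summed level of the 7 members was 15.0 ± 0.998 CPM per kb (SD, n = 3) in B16F10 with vehicle, 15.1 ± 0.453 with the STING agonist, 32.6 ± 0.981 with IFNγ and 43.0 ± 3.799 with IFNβ. In 6694c2 it was 4.54 ± 0.413 with vehicle, 4.68 ± 0.690 with the STING agonist, 67.8 ± 2.45 with IFNγ and 192.8 ± 3.61 with IFNβ. The sum was thus lower in 6694c2 than in B16F10 with vehicle and higher with either interferon, with no overlap of libraries.

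In B16F10 with vehicle, Slfn3 made up 49.3% of the summed level and Slfn9 43.8%. With IFNβ the share of Slfn3 was 19.7%, that of Slfn9 61.1% and that of Slfn8 15.0%. In 6694c2 with vehicle, Slfn2 made up 48.0% and Slfn9 47.7%. IFNγ brought the Slfn2 share to 84.0% and IFNβ to 62.7%, with 24.3% from Slfn9 and 10.9% from Slfn8. Slfn1, Slfn4 and Slfn5 each made up at most 2.37% in any group.

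**Figure D4:**
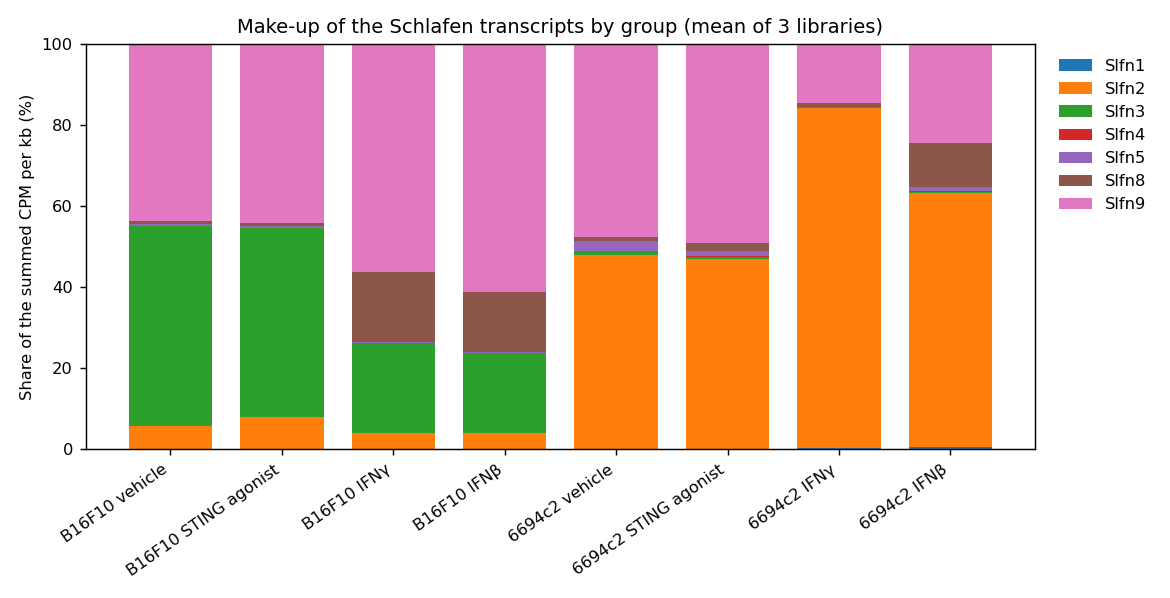
Share of each member in the summed CPM per kb of the family (%, y axis), as the mean of 3 libraries in each of the 8 groups. Slfn3 and Slfn9 filled most of the B16F10 bars, with Slfn8 added under the interferons, and Slfn2 and Slfn9 most of the 6694c2 bars, with Slfn2 at 84.0% under IFNγ.

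Of the 4 other genes with a Slfn symbol, only Slfn10-ps passed the filter on reads. This pseudogene gave 0.737 ± 0.288 CPM (SD, n = 3) in 6694c2 with vehicle, 5.34 ± 0.633 with IFNγ and 12.2 ± 2.03 with IFNβ, with log2 fold changes of 2.87 ± 0.24 and 4.08 ± 0.22, both called. In B16F10 it held 1 to 9 reads per group. Of its exonic 50-base stretches, 19.7% occur in Slfn8 or Slfn9, and in B16F10 with IFNβ, where Slfn8 held 1994 reads, 9 reads were counted for it. Slfn5os, the antisense gene overlapping Slfn5, had no read in any library. Slfn14 and Slfnl1 had at most 3 reads in any group.

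The interferon pathway itself responded in both lines. Of 15 genes known to be induced by type I interferon, IFNβ raised 15 in each line, with a median log2 fold change of 8.55 in 6694c2 and 4.13 in B16F10. These changes start from different levels. Under vehicle, 13 of the 15 were lower in 6694c2 than in B16F10 and 1 was higher, with a median log2 difference of -4.49. In that comparison 58.0% of all genes were called. Of 13 signalling genes, 9 rose in 6694c2 with IFNβ and 9 in B16F10, where 1 fell. Among these Stat2 rose by 4.70 in 6694c2 and 4.16 in B16F10, Irf9 by 4.35 and 1.32 and Irf1 by 2.28 and 1.68. With the STING agonist 12 of the 15 type I genes rose in B16F10, with a median log2 fold change of 1.16, and 5 in 6694c2, with a median of 0.41. In the same B16F10 libraries, as given above, no Schlafen member was called.

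Of 10 genes known to be induced by IFNγ, that cytokine raised 8 in B16F10 and 10 in 6694c2. All 10 were lower with IFNβ than with IFNγ in 6694c2, whereas all 7 Schlafen members and all 15 type I genes were higher. In that comparison 13.9% of all genes were called. In B16F10, where 14.5% were, 8 of the 10 were lower, and of the 15 type I genes 14 were higher and 1 lower. Of the 7 members, 2 were higher there, Slfn9 and, in a call that several settings lost, Slfn3. In the list on tRNA cleavage, the process Slfn2 is linked to, 2 of 6 genes rose with IFNβ in 6694c2, where 18.2% of all genes were called, and 3 rose and 1 fell in B16F10, where 24.0% were. Of 12 cell cycle genes, IFNβ lowered 8 and raised 2 in B16F10, and lowered 2 and raised 1 in 6694c2.

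Around the cluster, 42 other genes lay within 250 kb or inside it, of which 25 were tested. IFNβ raised 10 of them in 6694c2, where 18.2% of all genes were called, and raised 4 and lowered 2 in B16F10, where 24.0% were. Their median log2 fold changes were 0.29 and 0.08, beside 5.82 and 0.52 for the members. Several of those that rose most adjoin or overlap members: 1190001M18Rik next to Slfn9, Gm11425 between Slfn8 and Slfn10-ps (3.12 ± 0.40 in 6694c2) and Gm20234 antisense to Slfn2 (3.64 ± 0.44). Whether the counting used strand is not given in the sources used here, so reads of Slfn2 and Gm20234 cannot be told apart where they overlap. AI662270 and Gm11427, next to Slfn3, shared its distribution between lines, with 45.5 and 14.0 CPM in B16F10 with vehicle and 1.09 and 0.139 CPM in 6694c2. Ccl5, a chemokine gene at the far flank, rose by 2.65 ± 0.09 with the STING agonist in B16F10, where it was the single gene of the 25 that was called.

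**Figure D5:**
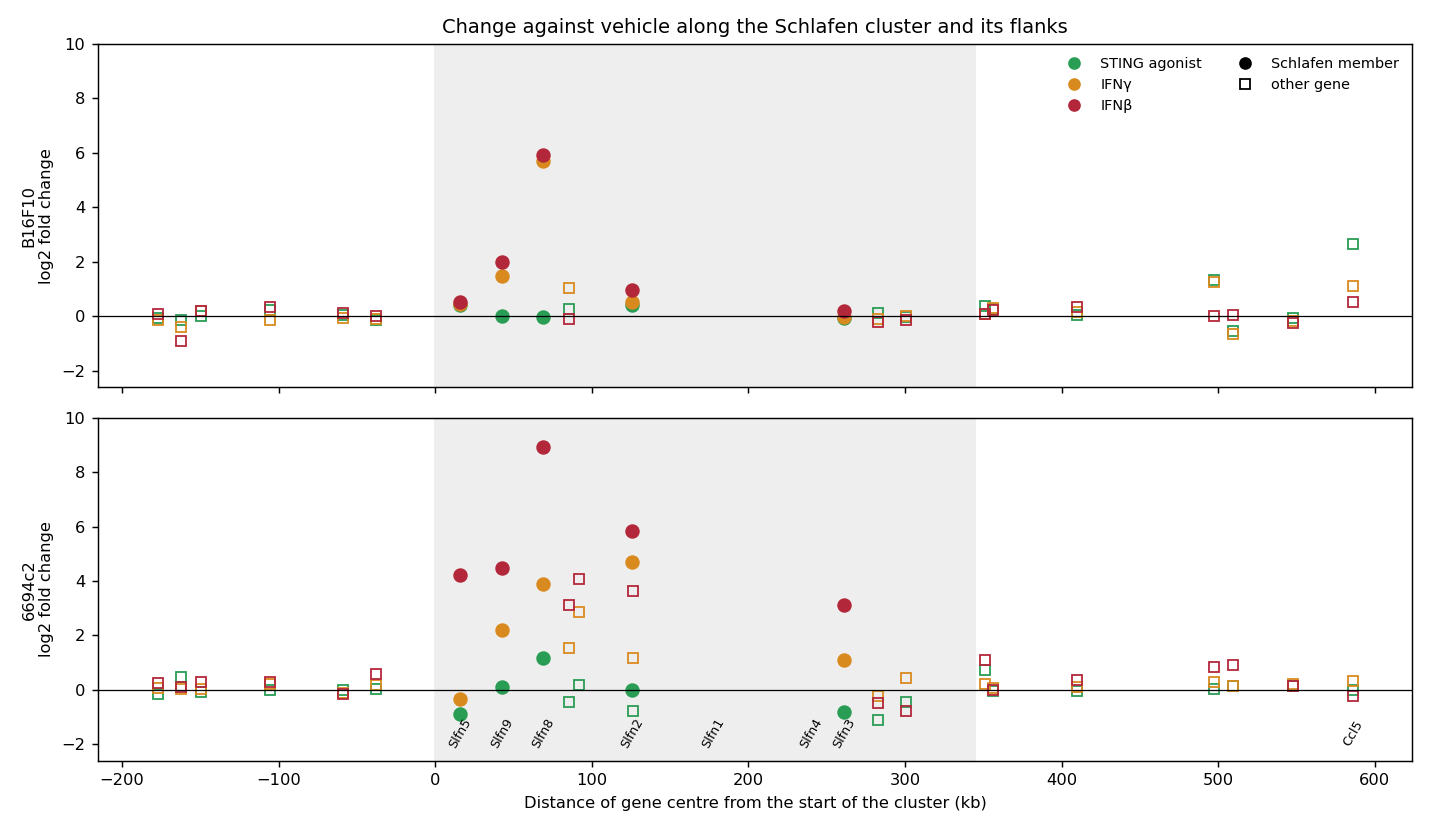
Log2 fold change against vehicle (y axis) of members (filled circles) and other genes (open squares) along chromosome 11, by distance of the gene centre from the start of the cluster in kb (x axis), for B16F10 (top) and 6694c2 (bottom). The grey band marks the cluster, and genes under 1 CPM in every group or with 3 reads or fewer in a group compared are left out. Changes above 3 with IFNβ in 6694c2 lay within the band, and Ccl5 at the right was highest with the STING agonist in B16F10.

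Between members, Slfn8 and Slfn9 had a Pearson correlation of 0.93 and Slfn4 and Slfn5 of 0.97 in log2 CPM over the 24 libraries, whereas Slfn3 ranged from -0.53 with Slfn2 to 0.43 with Slfn9. The points share libraries and cell lines, so these values describe the 8 groups rather than independent samples. The correlation took in 13353 genes, family genes included. Of those outside the family, Slfn8 was closest to Ifi44, Daxx and Tmem106a (0.99, 0.99 and 0.98), and Slfn9 to Eif2ak2, N4bp1 and Oas2 (0.99, 0.98 and 0.98). Slfn2 was closest to Ms4a4d, Cybb and Ifit1bl1, Slfn1 to A230050P20Rik, Epsti1 and Tsc22d3, and Slfn3 to Ets1, Ccnd3 and Arsb. Slfn4 and Slfn5 had the same 3 nearest genes, Pax5, Gm6545 and Ifi213.

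Each line had high levels of the markers of its labelled type. Melanocyte markers summed to between 14675 and 18544 CPM in B16F10 libraries, and ductal markers to between 12817 and 15104 CPM in 6694c2 libraries. The ductal sum in B16F10 was 0.826% of that in 6694c2 vehicle with the STING agonist and 0.130% to 0.266% in the other groups. The melanocyte sum in 6694c2 libraries was 0.454% to 0.472% of that in B16F10 vehicle with vehicle, 0.194% to 0.699% with IFNγ, 0.145% to 0.216% with IFNβ and 0.1003% to 0.121% with the STING agonist. In 6694c2, 5 of the 7 melanocyte markers fell with the STING agonist, a comparison with 76 calls in all, and 6 fell with IFNβ. The part of RNA from the other line in these low marker levels was not tested. Of 14 leukocyte markers, 11 were tested; their sum was 43.3 to 49.6 CPM in 6694c2 with IFNβ and 9.81 to 30.8 CPM elsewhere. In 6694c2 with IFNβ the T cell genes Cd3e, Cd3g and Cd4 were at 0, as in the other 6694c2 groups. The other T cell gene listed, Lck, had reads there. With IFNβ in 6694c2, 1 marker of the 11, Pax5, was called higher.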

How the data were processed

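PolyA RNA of cultured B16F10 and 6694c2 cells was sequenced paired-end. Per the labels and the study's methods, the authors checked reads with fastqc 0.11.9 and multiQC 1.5, trimmed with cutadapt 1.14, aligned with STAR 2.7.9a (mm10 is the listed build) and counted with Rsubread. The deposited files hold raw counts per gene, which are not normalized. Strand use and handling of multi-mapped reads are not given in the sources used here. The 24 libraries held 15543131 to 32266795 reads on genes. The floor of 3 reads used for bounds covers counting error only.

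Genes with at least 10 reads over the 24 libraries (21138 of 49315) were tested with edgeR 4.0.16 (quasi-likelihood, TMM) in R 4.3.3, with 1 fit of 12 libraries per line for treatments, and 1 fit of 24 for the vehicle comparison and interactions. The call was an adjusted p under 0.05. Alternatives were DESeq2 1.42.0, RLE size factors, other filters and fits, a replicate block, each library left out, and sums of family genes. The sums were of Slfn8, Slfn9 and Slfn10-ps, of Slfn3 and Slfn4, and of Slfn1 and Slfn2. The fit was tested on simulated data. Promoter windows came from RefSeq (GRCm38.p6). The members, gene lists and tests were chosen with earlier results of these data known. All members were named, with up to 4 genes of a list (largest and smallest changes, and Stat2, Irf9 and Irf1). Others that are named adjoin members or were chosen after their values were seen. The 6 single-cell samples were not analysed here. Some items are not reported here.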

Additional observations from a re-analysis of the deposited data

Results flagged for a closer look

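The effect of a treatment differed between 6694c2 and B16F10 by the interaction test for 9 combinations of member and interferon, each higher in 6694c2. With IFNγ these were Slfn9 (difference of log2 fold changes 0.71) and Slfn2 (4.18). With IFNβ they were Slfn5 (3.69), Slfn9 (2.46), Slfn8 (2.99), Slfn2 (4.83), Slfn3 (2.89), Slfn1 (8.67) and Slfn4 (11.2). The values of Slfn1 and Slfn4 depend on the prior count, because groups in these comparisons hold 0 to 3 reads, and they are not measures of size. The Slfn1 call was lost with B16F10 vehicle replicate 2 or 3 left out (edgeR adjusted p = 0.0818 and 0.0823). Of all genes, 9.47% were called in the IFNγ test and 12.1% in the IFNβ test.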

How the results depend on the processing

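Of 1268 alternative values over 80 pairs of member and comparison, 1218 kept their direction and their side of the threshold, 20 lost the call, 8 gained one and 22 changed sign. Pairs with 3 reads or fewer in every group compared were left out. The values include the sums of family genes, which do not check a member that holds few of the summed reads. The number of members called moved by over 1.5 times in 1 comparison, IFNβ against IFNγ in B16F10. It was 2 as reported and 1 with size factors by RLE, a filterByExpr minimum, no filter, a fit of the compared groups alone, a fit of all 24 libraries or DESeq2, and 1 to 3 with a library left out. The gene lost was Slfn3, and the cause was not tested. The replicate numbers did not pair the samples (correlations of deviations from -0.19 to 0.18, with 8 of 24 libraries correlating best with their own number), and with the replicate block that count stayed 2 and the block changed no other count of members by over 1.5 times. Over all genes, the STING agonist calls in B16F10 were 732, and 1271 with the compared groups alone and 459 with all 24 libraries. In 6694c2 they were 76, and 44 with the filterByExpr minimum, 159 with no filter, 126 with the replicate block and 132 with the compared groups alone. The STING agonist difference between lines gave 449, and 793 with the compared groups alone and 743 with DESeq2. None of the sign changes concerned a member called as reported, but 1 of the changed values was itself called, that of the summed genes for the IFNγ difference between lines. Slfn2 with the STING agonist in 6694c2 came to -0.000635 with the filterByExpr minimum and to between -0.14 and 0.25 with a library left out. With Slfn8, Slfn9 and Slfn10-ps summed, the STING agonist change in B16F10 was 0.0176. The IFNγ difference between lines was 0.54 for the sum (edgeR adjusted p = 0.00263), -1.82 for Slfn8 alone and 0.71 for Slfn9 alone. Slfn9 held most of the summed reads, so the sum does not check Slfn8. With a library left out, the STING agonist change in B16F10 was between -0.39 and 0.37 for Slfn8 and between -0.0231 and 0.0888 for Slfn9, and the difference between lines for Slfn9 was between -0.0295 and 0.17. In B16F10, Slfn3 with IFNγ was then between -0.0962 and 0.0181, and Slfn5 between -0.42 and 0.43 for IFNβ against IFNγ and between -0.45 and 0.40 for the STING agonist against IFNβ. Low reads limit Slfn1, Slfn4 and Slfn5 in B16F10 and Slfn8 with vehicle.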
